A study of Mus musculus with 8 samples.

Results

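The BCL2 family genes studied here are Bcl2, Bcl2l1, Bcl2l2, Mcl1, Bax, Bak1, Bok, Bbc3, Bcl2l11 and Bid. They are the 10 rows, of 46983 genes in the deposited expression table, whose gene symbol equals one of these names. Their levels were measured by RNA-Seq of the whole hippocampus in 4 independent XBP1s-TG and 4 independent control samples. XBP1s-TG mice carried TRE-XBP1s and Camk2a-tTA, and the genotype of the other group is given only as control, so which of the alleles, if any, the control mice carried is not known here. All mice were C57BL/6 and 2 months old. Doxycycline in the drinking water keeps the transgene silent, and hippocampi were collected 7 days after it was withdrawn. The Camk2a promoter is active in forebrain excitatory neurons, whereas the RNA came from all cells of the tissue, so a change confined to those neurons is diluted, and fewer cells of a type and less RNA per cell cannot be told apart.

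The BCL2 family decides whether a cell releases cytochrome c from its mitochondria and dies by apoptosis. Antiapoptotic members such as BCL-2, BCL-XL and MCL-1 hold the pore-forming effectors BAX and BAK in check. BH3-only proteins such as BIM, BID and PUMA sense damage and either block the antiapoptotic members or activate the effectors directly, and prolonged stress of the endoplasmic reticulum (ER) is known to reach the family partly through CHOP, which can raise BIM and PUMA. In the hippocampus the family is known for setting how readily neurons die after seizures, ischemia or loss of trophic support.

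The library labels were checked first on the targeted gene. Xbp1 stood at 786, 549, 1094 and 729 TPM (a transcript level corrected for gene length and depth) in XBP1s-TG libraries S1 to S4, against 70.4, 68.9, 71.9 and 69.7 TPM in control libraries S5 to S8. Hspa5, which encodes the ER chaperone GRP78, averaged 613 ± 83.5 TPM in XBP1s-TG and 186 ± 13.2 TPM in control mice (SD, n = 4 each). A gene was called when limma, run on log2(TPM + 2), put its adjusted p (Benjamini-Hochberg) under 0.05 and its change at 1.5-fold or more, among the 9270 genes above 4 on that scale (equal to 14 TPM) in at least 1 library after quantile normalization. All 10 markers of hippocampal excitatory neurons passed this limit. Their sum was 5355 to 5926 TPM in XBP1s-TG and 6167 to 7007 TPM in control libraries, with Wfs1 called higher and Neurod6 called lower and the other 8 not called. At the adjusted p alone 2 were higher and 3 lower, and the median log2 fold change was -0.19. The sum includes Wfs1, whose log2 fold change was 1.98. Markers of microglia summed to 442 to 522 TPM in XBP1s-TG and 507 to 537 TPM in control libraries, and 7 of the 7 tested were lower at the adjusted p alone, by 0.19 to 0.45 on the log2 scale. Choroid plexus markers summed to only 86.1 TPM in S1 and 182 TPM in S3, against 5124 and 9112 TPM in S2 and S4 and 4013 to 8895 TPM in control libraries. The sum of interneuron markers went the other way, at 1486 to 1655 TPM in XBP1s-TG and 1285 to 1472 TPM in control libraries. Of the 7 tested, 0 were called, and at the adjusted p alone 1 was higher and 1 lower. Single interneuron markers ranged from -0.38 to 0.21 on the log2 scale, with a median of -0.01. The part of these cell type markers in the results below was not tested. S1 and S3 were also the libraries with the most Xbp1, and values that rest on them are given without them. Reads assigned to genes, recovered from the TPM values, numbered 35202609 to 41765047 per XBP1s-TG library and 34821797 to 52059316 per control library.

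At an adjusted p under 0.05, 4 of the 7 genes tested were lower in XBP1s-TG mice, beside 29.4% of all genes tested. None of the 7 was higher, beside 24.4% of all genes. Without normalization beyond TPM, 3 of 6 members tested were lower. Bok, an effector-like member found largely at the ER, was 1.63-fold lower in XBP1s-TG mice and was the only one of the 10 called. Bcl2l1, Bax and Bak1 were lower by less than 1.5-fold. Mcl1, which had the highest mean level in XBP1s-TG mice, Bcl2l2 and Bbc3 passed neither test, and Bcl2, Bcl2l11 and Bid lay below the limit for testing.

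Of the 10 family genes, 7 passed the limit. Bbc3 did so only after quantile normalization, its highest deposited value being 13.5 TPM, and was not tested without normalization beyond TPM. With both the adjusted p and 1.5-fold, 0 of the 7 were higher, where 5.61% of all genes tested were, and 1 of the 7 was lower, where 2.75% of all genes were. At the adjusted p alone 0 of the 7 were higher, beside 24.4% of all genes, and 4 of the 7 were lower, beside 29.4% of all genes. Of all 10 members, 0 had XBP1s-TG values entirely above the control values and 2, Bcl2l1 and Bok, had them entirely below. Over all genes tested these shares were 34.1% and 13.2%. The median log2 fold change was -0.25 over the 7 members tested and -0.04 over all genes tested.

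Because the 3 genes below stood lower in XBP1s-TG mice, the 250 bases before 1 annotated transcription start of each are shown. They run 5′ to 3′ on the coding strand and come from RefSeq on GRCm38.p6. Bok (chr1:93685325-93685574, plus strand) and Bcl2l1 (chr2:152831729-152831978, minus strand) are the members whose ranges did not overlap, and Bax (chr7:45466899-45467148, minus strand) is the most abundant effector. Capitals mark CCACG, the core shared by ER stress elements, and ACGT, the core of the elements XBP1s and ATF6 are known to bind.
Bok: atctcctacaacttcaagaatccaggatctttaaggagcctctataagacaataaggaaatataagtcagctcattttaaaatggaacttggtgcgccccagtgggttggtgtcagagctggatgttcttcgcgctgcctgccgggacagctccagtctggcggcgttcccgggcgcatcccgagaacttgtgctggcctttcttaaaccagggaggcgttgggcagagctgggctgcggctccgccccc
Bcl2l1: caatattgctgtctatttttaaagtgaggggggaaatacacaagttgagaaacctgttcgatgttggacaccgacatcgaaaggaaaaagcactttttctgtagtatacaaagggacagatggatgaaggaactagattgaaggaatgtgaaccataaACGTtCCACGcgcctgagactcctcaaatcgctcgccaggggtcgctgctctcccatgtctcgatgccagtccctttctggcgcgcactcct
Bax: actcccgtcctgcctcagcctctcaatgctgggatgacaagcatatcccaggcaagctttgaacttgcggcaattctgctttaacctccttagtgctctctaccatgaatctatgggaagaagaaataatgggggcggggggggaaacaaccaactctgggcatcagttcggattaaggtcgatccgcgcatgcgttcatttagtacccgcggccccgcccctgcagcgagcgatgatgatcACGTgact
The Bok stretch holds 12 CpG dinucleotides and no capital, the Bcl2l1 stretch holds 12 CpG and both cores 1 base apart, and the Bax stretch holds 14 CpG and ACGT close to the start. The median over 32851 RefSeq promoters was 6 CpG in such a stretch. In the longer window of 250 bases before to 50 after the start, searched on both strands, the 10 members had 15 annotated promoters. CCACG was in 6 of the 15 (40%), from Bax, Bbc3, Bcl2l1 and Bcl2l11, against 32.8% of all promoters. ACGT was in 4 of the 15 (26.7%), from Bax, Bbc3, Bcl2 and Bcl2l1, against 30.9%. For Bcl2l1 both cores came from the promoter shown, with its start at 152831728. The promoters of its other annotated starts, at 152828489 and 152830717, held neither core. The longer elements were in 0 of the 15. Over all promoters TGACGTGG, whose letters overlap both cores, was in 0.676%, and TGACGTCA, which contains ACGT, was in 1.79%. The ER stress element (CCAAT and CCACG 9 bases apart) was in 0.119% and ERSE-II (ATTGG and CCACG 1 base apart) in 0.0365%. A match is a description of the letters and says nothing about binding.

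Among the antiapoptotic members, Bcl2l1 encodes BCL-XL, the main BCL-2-like protein of adult neurons, and a short splice form with the opposite effect that a value per gene does not separate. Its gene lies on chromosome 2, 152780668 to 152831728, minus strand. It stood at 50.2, 53.5, 46.1 and 56.1 TPM in XBP1s-TG libraries S1 to S4, against 61.2, 63.4, 64.6 and 58.7 TPM in control libraries S5 to S8. Every XBP1s-TG library lay below every control library, with S3 lowest. The log2 fold change was -0.38 (SE 0.0646, 95% interval -0.52 to -0.23, limma adjusted p = 0.00104). The decrease was under 1.5-fold. The change was -0.27 without S1 and S3, and -0.26 without normalization beyond TPM (adjusted p = 0.0061).

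Mcl1 (chromosome 3, 95658788 to 95663176, plus strand) encodes a short-lived antiapoptotic protein whose level is set largely by its degradation. It stood at 81.3, 75.8, 85.9 and 87.6 TPM in XBP1s-TG libraries, against 79.9, 75.3, 78.1 and 62.6 TPM in control libraries. The groups overlapped, and control library S8 was the lowest of the 8. The log2 fold change was 0.04 (SE 0.0681, 95% interval -0.12 to 0.19, adjusted p = 0.671) and became -0.02 without S8. It was 0.16 without normalization beyond TPM (adjusted p = 0.118). The ratio of Bcl2l1 to Mcl1 within a library was 0.537 to 0.706 in XBP1s-TG and 0.766 to 0.937 in control mice, so the ranges lay apart. That ratio was not among those planned. The planned ratio of Bcl2l1 to Bax overlapped, at 0.583 to 0.742 in XBP1s-TG and 0.656 to 0.759 in control libraries. So did the ratio of Mcl1 to Bax, at 0.977 to 1.16 and 0.7 to 0.991.

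Bcl2l2, which encodes BCL-W, varied widely within the XBP1s-TG group. It stood at 44.3, 25.2, 35.9 and 28.1 TPM in XBP1s-TG libraries, against 23.1, 29.1, 27.5 and 24.8 TPM in control libraries. S1 and S3 were above all control libraries, and S2 and S4 fell among them. Its log2 fold change was 0.19 (SE 0.146, 95% interval -0.13 to 0.52, adjusted p = 0.286), and without S1 and S3 it was -0.07. The gene (chromosome 14, 54883377 to 54888234, plus strand) shares its span and strand with Gm20521, a read-through model that runs on into Pabpn1. Gm20521 averaged 126 ± 15.1 TPM in XBP1s-TG and 116 ± 9.83 TPM in control mice (SD, n = 4 each), so how reads were split between Bcl2l2 and Gm20521 is uncertain.

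Bcl2, the founding member (chromosome 1, 106538178 to 106714274, minus strand), was the least abundant of the antiapoptotic genes. It stood at 6.06, 6.22, 7.0 and 7.13 TPM in XBP1s-TG libraries, against 6.40, 6.61, 7.55 and 5.71 TPM in control libraries. Those values rest on 637 to 780 reads per XBP1s-TG library and 638 to 969 per control library. The groups overlapped throughout. Mean log2(TPM + 2) was 0.01 higher in XBP1s-TG mice (p = 0.943, two-sided exact permutation test, n = 4 each, where the smallest p possible is 0.0286). In a fit that admitted genes over 2 TPM its 95% interval was -0.20 to 0.10 on the log2 scale.

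The effectors were all lower. Bok is known to reside mainly on ER membranes, where it binds inositol trisphosphate receptors, and BCL-XL and MCL-1 restrain it poorly. Its gene lies on chromosome 1, 93685660 to 93695764, plus strand. Bok stood at 37.6, 45.0, 28.4 and 48.9 TPM in XBP1s-TG libraries, against 55.0, 64.3, 64.6 and 56.2 TPM in control libraries. All XBP1s-TG values were below all control values, and S3 and S1, the libraries with the most Xbp1, held the least Bok. The mean was 40.0 ± 9.0 TPM in XBP1s-TG and 60.0 ± 5.13 TPM in control mice (SD, n = 4 each), from 637 to 1083 reads and 1263 to 1674 reads per library. The log2 fold change was -0.70 (SE 0.146, 95% interval -1.03 to -0.37, adjusted p = 0.00304), at rank 176 of 9270 from the most negative change. Without normalization beyond TPM it was -0.59 (adjusted p = 0.00618), only just past 1.5-fold. Without S3 the change was -0.55, and without S1 and S3 it was -0.44, both short of 1.5-fold though still under an adjusted p of 0.05. The part of the choroid plexus RNA missing from S1 and S3 in this was not tested.

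Bax (chromosome 7, 45461695 to 45466898, minus strand) encodes a cytosolic effector that moves to mitochondria when activated and is the effector on which most neuronal apoptosis is known to depend. It stood at 83, 77.5, 79.0 and 75.6 TPM in XBP1s-TG libraries, against 80.6, 86.7, 94.0 and 89.4 TPM in control libraries. The groups overlapped only through S1 and S5. Its change was -0.27 on the log2 scale after quantile normalization (SE 0.0529, 95% interval -0.39 to -0.15, adjusted p = 0.00226). Without normalization beyond TPM the change was -0.15 (adjusted p = 0.0433), and the ratio of mean deposited TPM was 0.899.

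Bak1 encodes BAK, which sits in the outer mitochondrial membrane, and in neurons is known to be spliced largely to a BH3-only form that a value per gene does not separate. It stood at 14, 16.3, 14.9 and 14.7 TPM in XBP1s-TG libraries, against 17.5, 18.1, 17.2 and 15.4 TPM in control libraries. S2 overlapped the control range, which reached down to S8. The log2 fold change was -0.25 (SE 0.0559, 95% interval -0.37 to -0.12, adjusted p = 0.00474), and without normalization beyond TPM it was -0.16 with an adjusted p of 0.0781. The gene (chromosome 17, 27019810 to 27029009, minus strand) lies inside the span of Ggnbp1 on the opposite strand. Ggnbp1 averaged 8.60 TPM in XBP1s-TG and 7.90 TPM in control mice. The library kit marks strand, and whether counting used strand is not given in the sources used here.

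Of the BH3-only genes, Bbc3, a p53 target that encodes PUMA (chromosome 7, 16309616 to 16318205, plus strand), stood at 13.5, 11.1, 9.53 and 11.5 TPM in XBP1s-TG libraries, against 12.4, 13.1, 11.8 and 12.5 TPM in control libraries. S1 was the highest of all 8 and the other XBP1s-TG libraries lay below the control range. The log2 fold change was -0.19 (95% interval -0.40 to 0.03, adjusted p = 0.126). Without S1 it was -0.25 with an adjusted p of 0.0451.

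Bcl2l11, which encodes BIM (chromosome 2, 128126038 to 128162547, plus strand), stood at 3.35, 3.26, 3.37 and 2.72 TPM in XBP1s-TG libraries, against 2.57, 2.88, 2.94 and 1.53 TPM in control libraries. S1 to S3 were above every control library, and S4 fell inside the control range. Mean log2(TPM + 2) differed by 0.22 (p = 0.0857, two-sided exact permutation test, n = 4 each). Bid (chromosome 6, 120891930 to 120916853, minus strand) encodes a protein cleaved by caspase-8 that links death receptors to mitochondria. It stood at 7.61, 8.76, 6.71 and 8.32 TPM in XBP1s-TG libraries, against 8.53, 8.81, 8.32 and 9.36 TPM in control libraries. S2 and S4 overlapped the control libraries, and the difference was -0.13 (p = 0.114, two-sided exact permutation test, n = 4 each). Neither difference passed its test, and with genes over 2 TPM admitted the 95% interval reached 0.42 for Bcl2l11 on the high side.

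**Figure D1:**
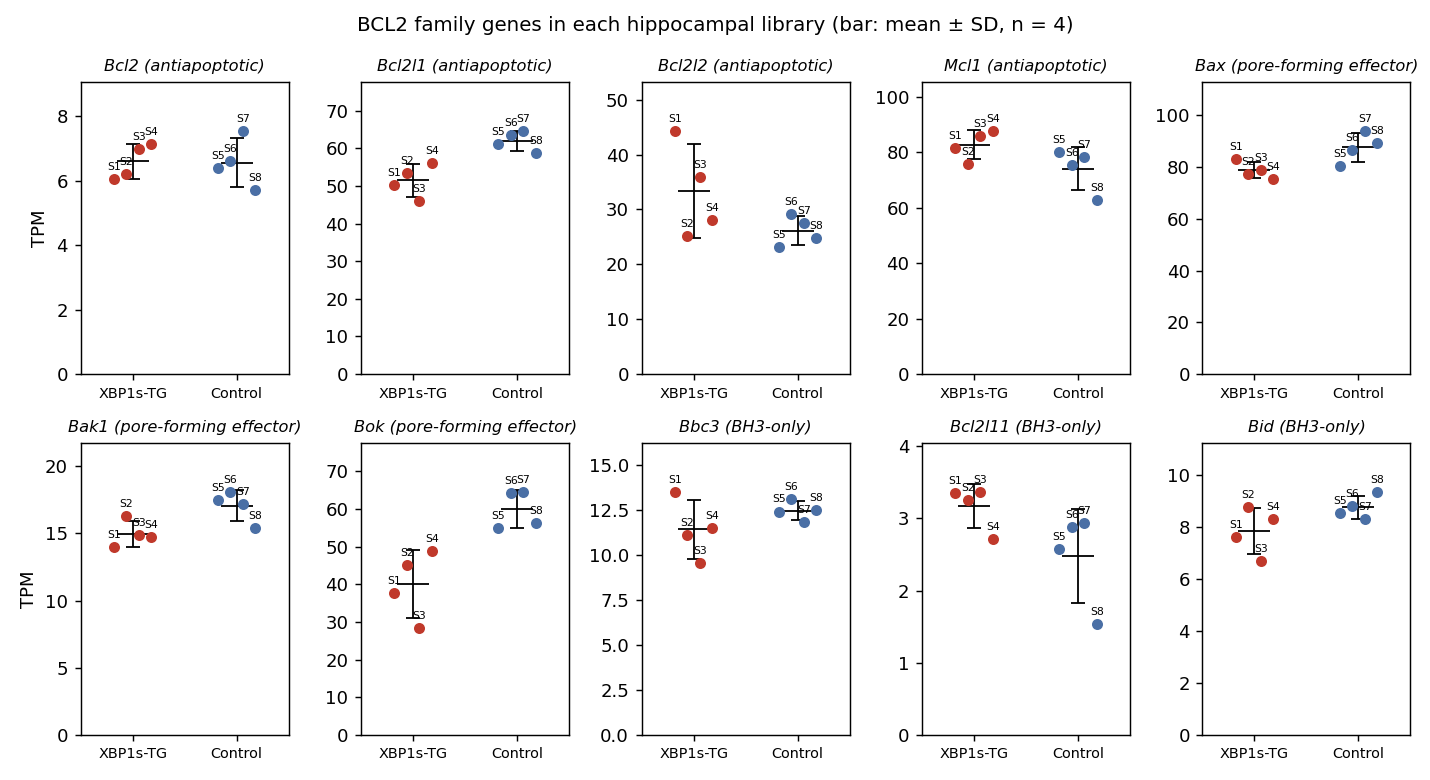
TPM of each BCL2 family gene in the 4 XBP1s-TG libraries (red, S1 to S4) and the 4 control libraries (blue, S5 to S8), with the mean and SD as bars and each axis starting at 0. Bcl2l1 and Bok are the panels in which no red point reaches a blue one, and in the Bcl2l2 panel S1 and S3 stand above the rest.

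**Figure D2:**
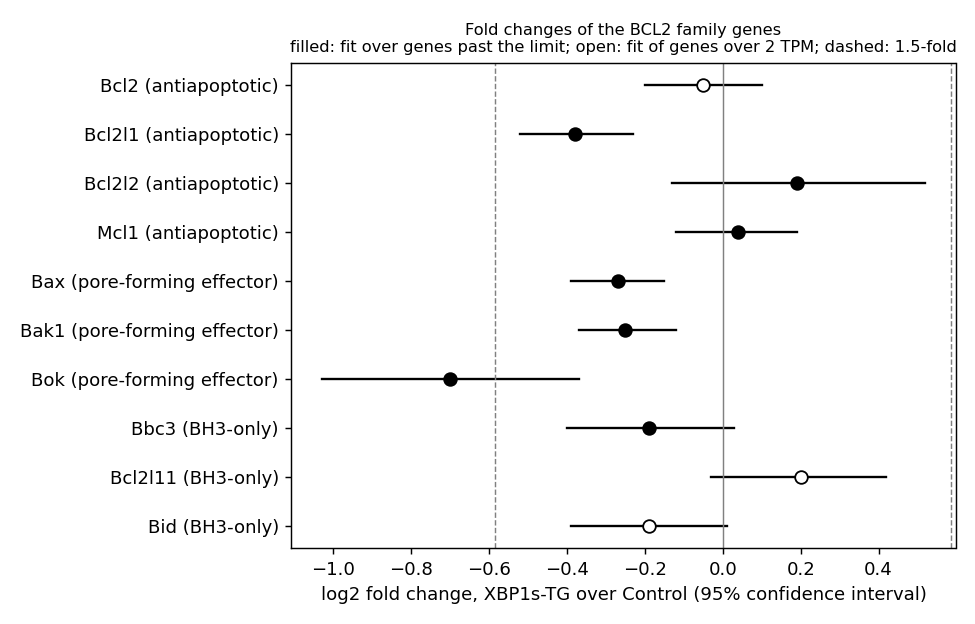
Log2 fold change of XBP1s-TG over control mice with its 95% interval, from the limma fit over 9270 genes (filled) or, for Bcl2, Bcl2l11 and Bid, from the fit of genes over 2 TPM (open). The intervals of Bcl2l1, Bax, Bak1 and Bok lie wholly below 0, and only Bok at -0.70 passes the dashed line of 1.5-fold.

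The order of levels within the family was similar in both groups, compared per length as TPM. In XBP1s-TG mice Mcl1 (82.6 TPM) and Bax (78.8 TPM) came first, and their ranges overlapped. Bcl2l1 (51.5 TPM), Bok (40.0 TPM) and Bcl2l2 (33.3 TPM) followed, with overlap between Bcl2l1 and Bok and between Bok and Bcl2l2. In control mice Bax (87.7 TPM) stood clear of Mcl1 (74.0 TPM), whereas Mcl1 overlapped Bcl2l1 (62.0 TPM) and Bcl2l1 overlapped Bok (60.0 TPM). Bcl2l2 (26.1 TPM in control mice) came next in both orders, and Bak1, Bbc3, Bid, Bcl2 and Bcl2l11 followed in the same order in both groups, with overlap only between Bid and Bcl2 in XBP1s-TG mice.

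Summed by role, the antiapoptotic genes reached 174 ± 9.29 TPM in XBP1s-TG and 169 ± 11.5 TPM in control mice (SD, n = 4 each), and the ranges overlapped. The effectors Bax, Bak1 and Bok summed to 122 to 139 TPM in XBP1s-TG libraries, against 153 to 176 TPM in control libraries, with no overlap. The ratio of the antiapoptotic to the effector sum was 1.35, 1.16, 1.43 and 1.29 in XBP1s-TG libraries, against 1.11, 1.03, 1.01 and 0.943 in control libraries. Every XBP1s-TG library therefore had the higher ratio of transcripts, and no test was made on these sums because the genes were chosen with results known. S3 and S1 had the highest ratios, and of the XBP1s-TG libraries they held the least Bok and the most Bcl2l2. Without them, S2 at 1.16 and S4 at 1.29 still lay above the highest control ratio, 1.11 in S5, though S2 only narrowly. Bok made up 29.6% ± 5.23 of the effector sum in XBP1s-TG and 36.4% ± 1.31 in control mice. The ranges of this share overlapped, at 23.2% to 35.1% in XBP1s-TG and 34.9% to 38% in control libraries. S3 (23.2%) and S1 (27.9%) held the lowest shares. The ratio of Bax to Bcl2 overlapped between groups, at 10.6 to 13.7 in XBP1s-TG and 12.4 to 15.7 in control libraries. The BH3-only sum was 19.6 to 24.5 TPM in XBP1s-TG and 23.1 to 24.8 TPM in control libraries.

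**Figure D3:**
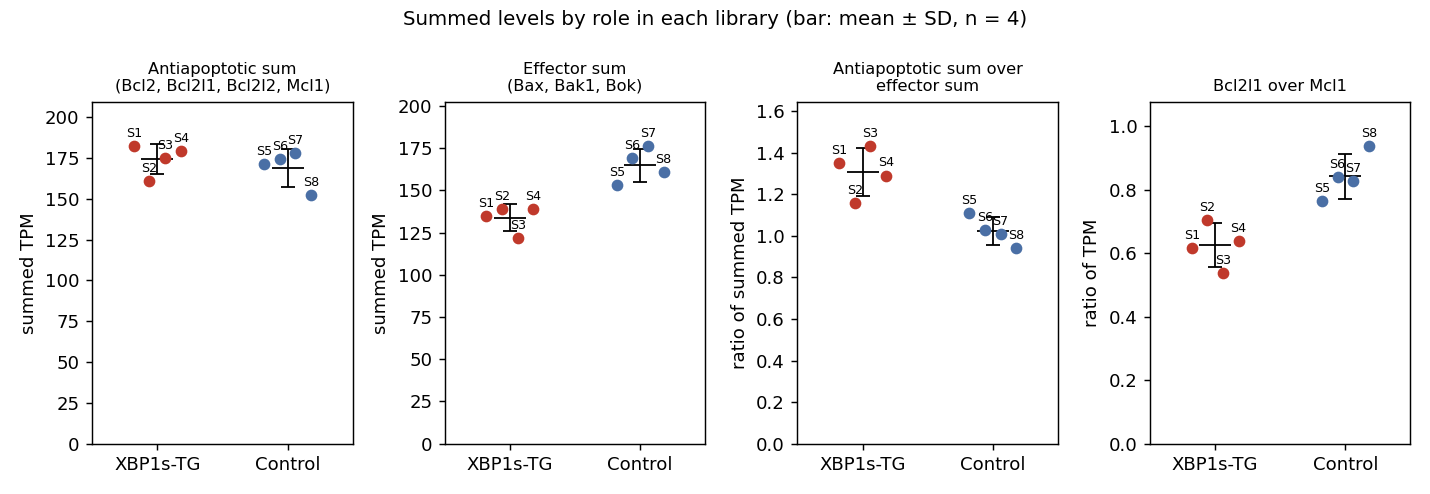
Summed TPM of the antiapoptotic genes and of the effectors, the ratio of these sums, and the ratio of Bcl2l1 to Mcl1, in each XBP1s-TG (red) and control (blue) library, with mean and SD. The antiapoptotic sums overlap, whereas the effector sums (122 to 139 TPM in XBP1s-TG, 153 to 176 TPM in control libraries) and both ratios fall in separate ranges. The ratios of Bcl2l1 and of Mcl1 to Bax, not drawn, overlap.

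The genes around the family were followed in 7 lists of 118 distinct genes, of which 76 were tested. Of these 7 were called higher and 1 lower, beside 5.61% and 2.75% of all genes tested. At the adjusted p alone 21 were higher and 26 lower, beside 24.4% and 29.4% of all genes. These shares of all genes also stand beside the counts of each list that follows. Among 18 other BCL2 family genes 7 were tested and 0 were called, with 1 higher and 1 lower at the adjusted p alone and a median log2 fold change of 0.01. Of the 11 below the limit, only Bcl2l15 had ranges apart, at 1.52 to 2.32 TPM in XBP1s-TG and 0.603 to 0.894 TPM in control libraries. Its control values rest on 20 to 31 reads per library (p = 0.0286, unadjusted, two-sided exact permutation test, n = 4 each). Bnip3, which encodes a mitophagy receptor with a BH3 motif, averaged 100 ± 6.68 TPM in XBP1s-TG and 122 ± 5.64 TPM in control mice (log2 fold change -0.39, adjusted p = 0.000616). Bnip2 changed by 0.26 (adjusted p = 0.00317). The BH3-only genes Bad and Hrk differed by 0.01 and -0.00 on the log2 scale after quantile normalization, with adjusted p of 0.81 and 0.984. In deposited TPM, Bad was higher in every XBP1s-TG library (33.2 to 35.9 TPM) than in any control library (31 to 32.1 TPM). Such separation was seen in 34.1% of all genes tested. The Hrk ranges overlapped.

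Downstream of mitochondria, in 22 genes of mitochondrial release, the apoptosome and caspases, 13 were tested, 2 were called higher and 0 lower, and the median was -0.05. At the adjusted p alone 4 were higher and 4 lower. Endog, a mitochondrial nuclease, stood at 69.0, 59.5, 78.0 and 62.8 TPM in XBP1s-TG libraries, against 27.3, 33.2, 37.2 and 37.8 TPM in control libraries (log2 fold change 0.83, adjusted p = 0.000268). Birc2, which encodes the ubiquitin ligase cIAP1, stood at 49.2, 43.0, 54.4 and 43.9 TPM in XBP1s-TG libraries, against 26.1, 25.0, 25.0 and 24.0 TPM in control libraries (0.76, adjusted p = 2e-05). Both were above every control library in every XBP1s-TG library. The outer membrane channels Vdac1 and Vdac2 were lower by less than 1.5-fold, at -0.21 and -0.19, and Vdac2 no longer had an adjusted p under 0.05 without normalization beyond TPM (-0.07, adjusted p = 0.134).

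The largest change in the 7 lists was that of Cflar, which encodes c-FLIP, the inhibitor of caspase-8 at death receptors. It stood at 27.6, 26.3, 33.9 and 28.4 TPM in XBP1s-TG libraries, against 9.19, 9.33, 8.52 and 7.30 TPM in control libraries. The groups were far apart, with a log2 fold change of 1.47 (SE 0.0755, adjusted p = 1.97e-06). All control values of Cflar were under the limit of 14 TPM, so it was tested only through its XBP1s-TG values. With values below the limit raised to it, the change was 0.90. Of the 11 genes of the death receptor pathway 3 were tested, and Cflar was the 1 called. Tnfrsf21, a death receptor of neurons, changed by 0.19 (adjusted p = 0.0189, and 0.14 without S1 and S3). Faim, an inhibitor of Fas signalling, changed by -0.15 (adjusted p = 0.0398, and 0.737 without normalization beyond TPM).

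Of 22 BCL2 partners and ER or mitochondrial survival factors 17 were tested, 1 was called higher and 0 lower, 6 were higher and 3 lower at the adjusted p alone, and the median was 0.04. The gene called was Bfar, which encodes an ER membrane protein that binds BCL-2 and procaspase-8, at 46.2 ± 6.27 TPM in XBP1s-TG and 23.1 ± 1.04 TPM in control mice (log2 fold change 0.82, adjusted p = 3.65e-05). Tmbim4, of the BAX inhibitor motif family, was just short of 1.5-fold at 0.58 and passed it without normalization beyond TPM (0.70) and with median centring (0.66). Bag4 changed by 0.34. In 10 genes of MCL1 and BCL2 protein turnover all 10 were tested, 1 was called higher and 0 lower, 3 were higher and 4 lower at the adjusted p alone, and the median was 0.05. Usp9x, which encodes a deubiquitinase known to stabilise MCL-1, averaged 119 ± 5.23 TPM in XBP1s-TG and 71.2 ± 6.45 TPM in control mice (0.61, adjusted p = 2.8e-05). Its change was 0.57 without S8, short of 1.5-fold. The ubiquitin ligase gene Itch changed by 0.50, and by 0.61 without normalization beyond TPM. Btrc, another ubiquitin ligase gene, changed by -0.23, and its adjusted p was 0.0721 without normalization beyond TPM.

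Upstream of the BH3-only genes, 13 of 20 genes of ER stress death and its control were tested, 2 were called higher and 0 lower, 3 were higher and 7 lower at the adjusted p alone, and the median was -0.15. Ddit3, which encodes CHOP, stood at 47.4, 36.8, 49.6 and 40.1 TPM in XBP1s-TG libraries, against 23.6, 27.1, 25.9 and 24.0 TPM in control libraries. The groups did not overlap, and the log2 fold change was 0.62 (SE 0.0814, adjusted p = 0.000226), 0.58 without S1, 0.56 without S3 and 0.47 without both. Ppp1r15a, which encodes the CHOP target GADD34, changed by 0.59 (adjusted p = 0.000448) and fell short of 1.5-fold without S1 (0.55), S3 (0.54), S6 (0.56) or S8 (0.56). Jun, a transcription factor of the JNK pathway, was lower at -0.56 (adjusted p = 0.0001), and the neuronal JNK gene Mapk10 was at -0.27.

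Of 20 p53 target genes 13 were tested, 0 were called higher and 1 lower, 2 were higher and 6 lower at the adjusted p alone, and the median was -0.18. Plk2, a neuronal kinase gene that also responds to activity, averaged 141 ± 14.8 TPM in XBP1s-TG and 206 ± 9.35 TPM in control mice (log2 fold change -0.65, adjusted p = 0.000174). Without normalization beyond TPM it was -0.55, and without S1 and S3 it was -0.54, both short of 1.5-fold. Ei24, which encodes an ER membrane protein that binds BCL-2, changed by -0.27 and the stress gene Sesn2 by 0.36. Bbc3 and Bax, themselves p53 targets, are described above.

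**Figure D4:**
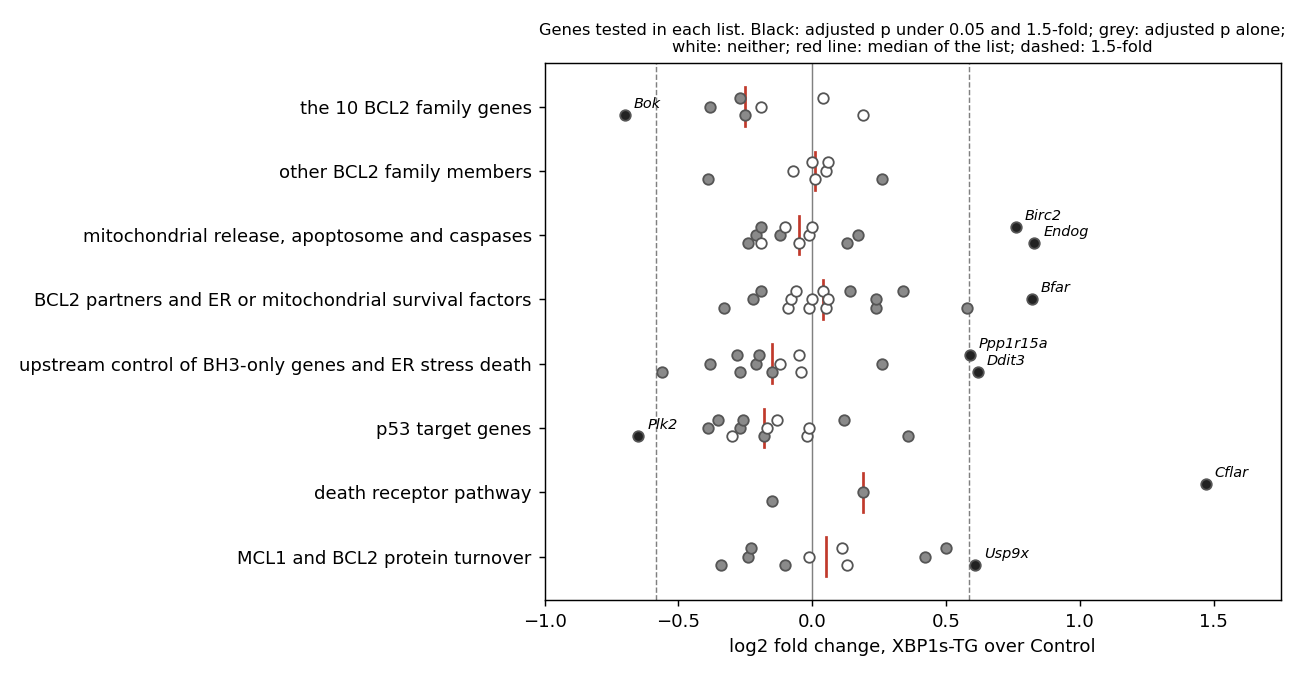
Log2 fold change of XBP1s-TG over control mice for every gene tested among the BCL2 family genes and in the 7 lists around them, with black for genes called, grey for those at the adjusted p alone, white for the rest and a red line at each median. Bok and Plk2 lie left of the lower dashed line, and Cflar at 1.47 lies farthest right.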

How the data were processed

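RNA of 8 hippocampi was sequenced after stranded mRNA library preparation. According to the study's methods, the authors checked reads with FastQC, trimmed them with Trimmomatic and used GRCm38 for mapping and gene counts in CLCbio Genomics Workbench under default parameters. The values deposited by the authors are TPM per gene and library, each library summing to 1000000. Group means and p-values deposited beside them were not used.

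The groups of columns S1 to S8 are those given in the table. TPM values were transformed as log2(TPM + 2) and quantile normalized over all 8 libraries. Genes that after normalization lay above 4 on that scale (equal to 14 TPM) in some library entered a limma 3.58.1 fit in R 4.3.3 (lmFit, eBayes with a trend). A change is on the log2(TPM + 2) scale, which understates that of low genes. The limit of 4 stands in for a noise limit whose number the methods do not give. limma replaced the authors' test per gene with unequal variances because groups are small. For genes below the limit, groups were compared by the exact permutation test in scipy 1.17.1. TPM ratios within each library gave whole reads for 29237 of 29237 genes above 0 at a tolerance of 0.001. These are the smallest whole numbers that match, and limma-voom on them was an alternative. The others were pseudocounts of 1 and 0.1, other limits on low values, other scalings, other variance models and libraries left out. In simulated data for 4 against 4 libraries, limma recovered 66 of 67 genes changed by 1.5-fold, 67 of 67 by 2-fold and 66 of 66 by 3-fold. There were 8 false calls among 207, over 8956 genes, all counted at the adjusted p alone. The simulation changed few genes, well expressed and balanced in direction, with no library differing in tissue content. It therefore cannot give the error rate of the calls in these data.

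Named are the 10 members, and in each list the genes called, up to 6 by adjusted p, plus the 2 others of smallest adjusted p. Bad, Hrk, Bcl2l15, Wfs1 and Neurod6 were named after their values were seen. Members and lists were chosen with earlier results of these data known. Positions are those in the deposited table.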

Additional observations from a re-analysis of the deposited data

Results flagged for a closer look

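Of 26 groups of 4 libraries screened for a value far from the others, 1 stood out, where chance gives about 1 in 20. Bcl2l11 was 2.72 TPM in XBP1s-TG library S4, against 3.26 to 3.37 TPM in the other 3 XBP1s-TG libraries. S4 held the most choroid plexus RNA of the group (9112 TPM summed over its markers), and the part of this in the Bcl2l11 value was not tested.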

How the results depend on the processing

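The number of members called, 1, ranged from 0 to 1 when single libraries were left out, with the call of Bok lost without S3, and was 0 without S1 and S3, where 6 members were tested and fewer samples entered. The number at the adjusted p alone, 4, ranged from 3 to 5 over the alternatives. Members with separate ranges, 2, ranged from 2 to 5 without single libraries (4 without S1, 5 without S2) and were 4 without S1 and S3, as fewer values per group have less room to overlap. The log2 fold changes of the 7 members tested kept direction and side of the adjusted p threshold in 130 cases. Bak1 passed the adjusted p no longer without normalization, Bbc3 passed it without S1, Mcl1 turned to -0.02 without S8 (range without single libraries -0.02 to 0.07, and 0.16 without normalization, 0.12 with median centring and 0.10 by voom, against 0.04) and Bcl2l2 to -0.07 without S1 and S3. The cause was not tested. Bcl2 ranged from -0.04 to 0.06 without single libraries and was -0.05 with a limit of 2 TPM, with no limit and by voom. Pathway genes called higher, 7, ranged from 5 to 9, and those called lower, 1, were 0 without normalization and without S1 and S3. Without normalization beyond TPM the median of all genes moved by 0.104 on the log2 scale, and 709 genes were called higher and 150 lower, against 520 and 255, with 3167 and 1343 at the adjusted p alone, against 2260 and 2729. Median centring gave 631 and 184 (2669 and 1722 at the adjusted p alone). Voom, which tested 16939 genes, called 1181 and 555, and the fit without S1 and S3 called 407 and 152. No paired analysis was possible because the columns of the table carry no replicate numbers. The values hold no isoforms or proteins, and 4 mice per group limit their precision.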
